A study of Oryza sativa with 6 samples.

Results

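BC1L6 and BC1L9 are 2 rice genes of the COBRA-like family, chosen because their signals were already known to be higher after the yeast, and they are 2 of the 14662 rice genes measured. They were found by name: a probe set had to be annotated to exactly 1 gene whose symbol or RefSeq synonym is BC1L6 or BC1L9, and where a gene has several probe sets the one with the highest mean over all arrays is used. Each gene had 1 such probe set, so no choice between probe sets was needed. In the RefSeq gene table BC1L6 is LOC4343844 on chromosome 7 and BC1L9 is LOC4349011 on chromosome 10, both protein-coding. Coordinates are left out, since no source used here names the genome build of the array design. Because the genes were picked on the differences between the times, their values below are a description and carry no p-value.

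The roots came from 3-week-old rice plants of the cultivar Swarna MTU7029, with no transgene or mutation named in the labels. Root samples were taken at 0 h, which the study used as its control, and at 6 h and 24 h after a cell suspension of Rhodotorula mucilaginosa JGTA-S1, a red-pigmented basidiomycete yeast, had been added. There were 2 arrays at each of 3 times, 6 in all, and for arrays it is this number that limits the precision. Every later sample had received yeast, so yeast and elapsed time cannot be told apart in any difference from 0 h. Whether replicate arrays stand for separate plants is not said in the labels, so p-values cover only the spread between these arrays, possibly a technical one.

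COBRA-like proteins are plant proteins that sit on the outer face of the plasma membrane or in the wall, most of them held by a glycosylphosphatidylinositol (GPI) lipid anchor. The founding member, COBRA of Arabidopsis, is needed for oriented cell expansion in the root, and other Arabidopsis members act in root hair growth and in thickened walls. In rice the best known member is BC1 (Brittle Culm 1), which is required for cellulose assembly in secondary walls and so for the strength of the stem. The tables used here give no role for BC1L6 or BC1L9 beyond their family names.

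BC1L6 was the more changeable of the pair. Its signal, on the deposited log scale read as log2, was 2.84 and 3.61 on the 0 h arrays, 5.30 and 4.96 on the 6 h arrays, and 6.21 and 6.18 on the 24 h arrays. The 3 times did not overlap: each array of a later time lay above each array of an earlier one. The means were 3.22 ± 0.54 at 0 h, 5.13 ± 0.24 at 6 h and 6.19 ± 0.02 at 24 h (SD, n = 2 arrays each). The 24 h arrays differed from each other by only 0.03, against 0.77 between the 0 h arrays, so most of the uncertainty lies at the control time.

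As differences of means, BC1L6 was 1.91 ± 0.35 log2 units higher at 6 h than at 0 h (SE of the limma fit, n = 2 arrays per time), a 3.75-fold difference. At 24 h it was 2.97 ± 0.35 above 0 h, a 7.85-fold difference, and 1.07 ± 0.35 above 6 h, a 2.10-fold difference. The smallest distance between a 24 h array and a 0 h array was 2.57, and the largest was 3.37. Ordered by the 24 h difference from 0 h, BC1L6 stood at place 16 of 14662 genes, and at 6 h it stood at place 290. These places describe the gene and were part of what led to its choice.

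BC1L9 showed the same order of times with smaller differences and closer replicates at 0 h. Its signal was 4.66 and 4.82 at 0 h, 5.85 and 6.07 at 6 h, and 6.65 and 6.61 at 24 h. Again no 2 times overlapped. The means were 4.74 ± 0.11 at 0 h, 5.96 ± 0.16 at 6 h and 6.63 ± 0.03 at 24 h (SD, n = 2 arrays each). The 24 h arrays were again the closest, 0.04 apart, with 0.16 between the 0 h arrays and 0.22 between the 6 h arrays.

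BC1L9 was 1.22 ± 0.29 log2 units higher at 6 h than at 0 h (SE of the fit, n = 2 arrays per time), a 2.34-fold difference. It was 1.89 ± 0.29 higher at 24 h than at 0 h, a 3.72-fold difference, and 0.67 ± 0.29 higher at 24 h than at 6 h, a 1.59-fold difference. Its places among the 14662 genes were 1452 at 6 h and 323 at 24 h, both behind those of BC1L6. The place at 6 h was 3080 with quantile normalization and 2488 with cyclic loess.

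**Figure D1:**
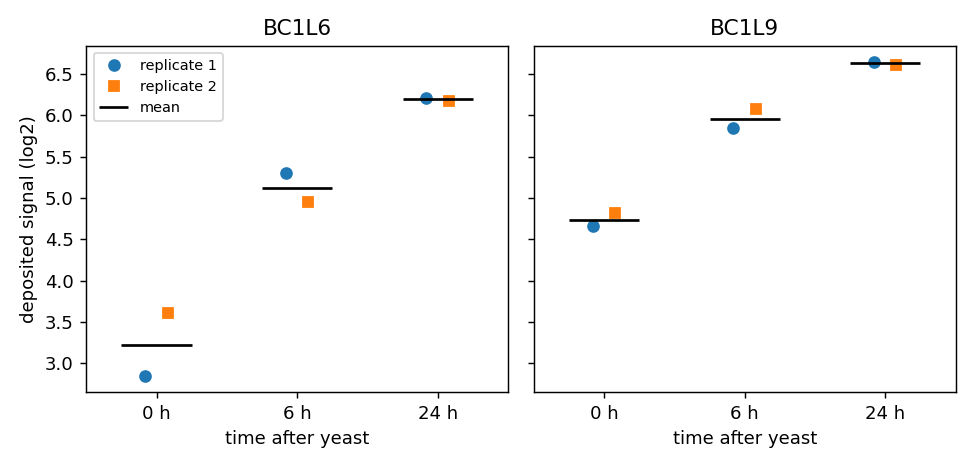
Deposited signal (log2, vertical axis) of BC1L6 and BC1L9 on each of the 6 arrays against the time after the yeast, with circles and squares for replicates 1 and 2 and a bar for the mean. In both genes every 24 h array lies above every 6 h array, and every 6 h array above every 0 h array, with the widest replicate gap (0.77) for BC1L6 at 0 h.

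The pair differed in the size of the difference. As deposited, the mean of BC1L6 had covered 64.1% of its distance between 0 h and 24 h by 6 h, and that of BC1L9 had covered 64.6%. The nearness of these shares depends on the scaling: they were 64.1% for BC1L6 and 49.4% for BC1L9 with quantile normalization, and 58.8% for BC1L6 and 52.7% for BC1L9 with cyclic loess. The difference of BC1L6 exceeded that of BC1L9 by 0.68 at 6 h and by 1.08 at 24 h, each relative to 0 h on the log2 scale. Both comparisons use the same 0 h arrays, and no test was made of the gap, since both genes were chosen on these contrasts.

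Over all 41770 probe sets, 18.2% had all 4 treated arrays above both 0 h arrays, and 3.18% had the full order seen in BC1L6 and BC1L9, with both 6 h arrays above both 0 h arrays and both 24 h arrays above both 6 h arrays. In the single comparisons, both treated arrays lay above both 0 h arrays for 22.4% of probe sets at 6 h and for 28.4% at 24 h, and both 24 h arrays lay above both 6 h arrays for 18.2%. Most probe sets have no annotated gene, and among the 14662 genes this order was more usual. It held for 5034 genes at 6 h, for 6242 at 24 h and for 2830 between 24 h and 6 h. For the orders over all 3 times, the shares over genes alone are not given here. The choice of the genes rested on the same contrasts, so nothing is read from their place in these shares.

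The distribution of the differences over all genes gives their setting. The median annotated gene was 0.20 higher at 6 h and 0.26 higher at 24 h than at 0 h, whereas over all 41770 probe sets the medians were -0.06 and -0.04. Relative to the median gene, BC1L6 stood 1.71 higher at 6 h and 2.71 at 24 h, and BC1L9 stood 1.03 and 1.63 higher at those times.

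**Figure D2:**
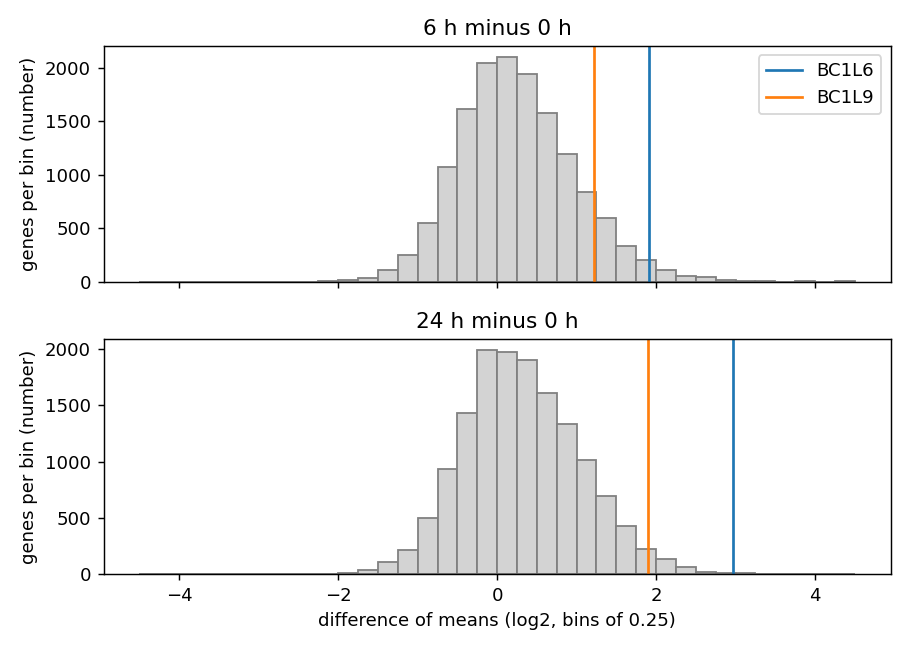
Number of genes (vertical axis) by difference of means on the log2 scale (horizontal axis, bins of 0.25) for 6 h minus 0 h above and 24 h minus 0 h below, over 14662 genes with the brightest probe set each. The vertical lines mark BC1L6 (1.91 and 2.97) and BC1L9 (1.22 and 1.89), which both stand in the right-hand tail and further out at 24 h.

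The rank of a gene within its own array is unchanged by scalings that keep the order of signals within an array. Median centring and quantile normalization keep it, and cyclic loess need not. For BC1L6, 47.7% and 69.5% of probe sets lay below it on the 0 h arrays, 84.5% and 85.3% on the 6 h arrays, and 91.9% and 92.1% on the 24 h arrays. For BC1L9 the shares were 85.0% and 87.1% at 0 h, 89.0% and 92.5% at 6 h, and 94.3% on both 24 h arrays. In both genes the share was highest on the 24 h arrays and lowest on the 0 h arrays. Brightness also depends on the probes, so these shares do not set the level of one gene against that of the other. The table holds no measure of background, so it is unknown how far the signal of BC1L6 at 0 h lay above it.

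**Figure D3:**
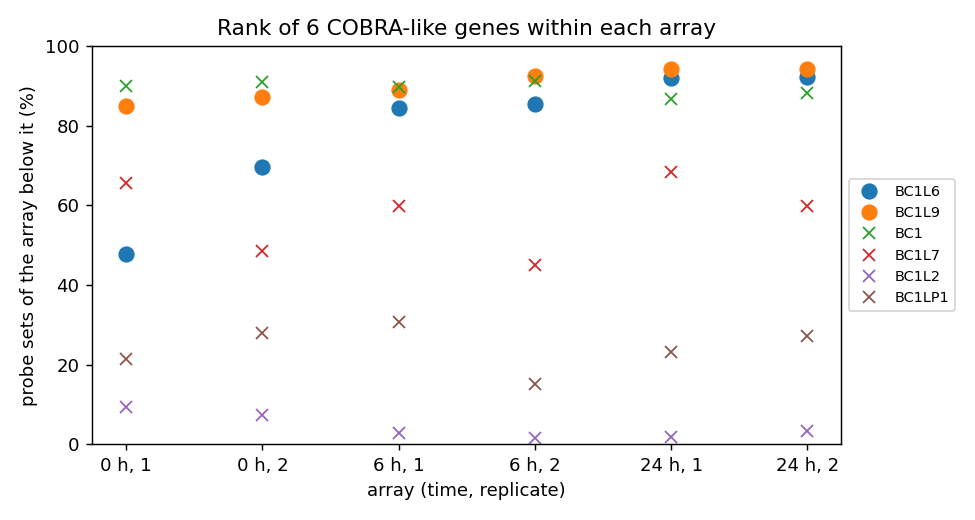
Share of the probe sets of an array that lie below each gene (vertical axis, %) on each of the 6 arrays (horizontal axis, time and replicate) for 6 COBRA-like genes, with filled circles for BC1L6 and BC1L9 and crosses for the rest. BC1L6 lies at 91.9% and 92.1% at 24 h, against 47.7% and 69.5% at 0 h, and BC1L9 at 94.3% at 24 h, against 85.0% and 87.1% at 0 h. A height on the axis also depends on the probes, so only shifts of 1 gene between arrays can be read.

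The rest of the family was set beside the pair. Besides BC1L6 and BC1L9, 4 COBRA-like genes could be matched by name, namely BC1, BC1L2, BC1L7 and BC1LP1, each with 1 probe set. A further gene that carries BC1 among its synonyms is named bHLH081, after a transcription factor family, and was left out. Other COBRA-like genes of rice were not analysed here. By limma with Benjamini-Hochberg adjustment over all probe sets, 0 of the 4 passed an adjusted p of 0.05 at 6 h, where 1.53% of all probe sets passed, and 0 at 24 h, where 2.21% passed. Counted over the 14662 genes, 307 passed as higher and 15 as lower at 6 h, and 436 and 16 at 24 h. Between 24 h and 6 h, 0 of the 4 passed, and 0% of all probe sets did. At an unadjusted p under 0.05 the count was also 0 of 4 in each of these 3 comparisons.

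BC1L7 is the nearest neighbour of BC1L6 on one side in the RefSeq gene order, with no annotated gene between them. Its signal was 3.44 and 2.89 at 0 h, 3.31 and 2.64 at 6 h, and 3.86 and 3.33 at 24 h. Both treated times overlapped with 0 h. Its difference was -0.19 ± 0.38 at 6 h (limma adjusted p = 0.822) and 0.43 ± 0.38 at 24 h (adjusted p = 0.536, SE, n = 2 arrays per time), against the 1.91 and 2.97 of BC1L6 beside it. From 6 h to 24 h BC1L7 differed by 0.62 ± 0.38 (limma unadjusted p = 0.14), near the 0.67 of BC1L9. Both its 24 h arrays lay above both 6 h arrays, as for 18.2% of all probe sets and for 2830 of the 14662 genes. The sign at 6 h turned when either of 2 arrays was left out, to 0.09 without the first 0 h array and to 0.15 without the second 6 h array.

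BC1, the secondary wall gene, read 5.28 and 5.35 at 0 h, 5.95 and 5.82 at 6 h, and 5.49 and 5.64 at 24 h. The treated arrays lay above the 0 h arrays by a small margin, and the 6 h arrays were the highest. Both 24 h arrays lay below both 6 h arrays, which taken alone held for 14.5% of all probe sets and for 2146 of the 14662 genes. The differences from 0 h were 0.57 ± 0.29 at 6 h (limma adjusted p = 0.318) and 0.25 ± 0.29 at 24 h (adjusted p = 0.639), and both turned negative when the arrays were quantile normalized (-0.0046 and -0.42) or put through cyclic loess (-0.0091 and -0.42).

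BC1L2 and BC1LP1 had low deposited signals. BC1L2 read 1.83 and 1.79 at 0 h, 1.26 and 1.39 at 6 h, and 1.18 and 1.37 at 24 h, with all treated arrays below both 0 h arrays. Over all probe sets, both treated arrays lay below both 0 h arrays for 23.3% at 6 h and for 28% at 24 h. That order was less usual among the 14662 genes, with 2137 at 6 h and 2386 at 24 h. Its differences were -0.48 ± 0.29 at 6 h (limma adjusted p = 0.395) and -0.53 ± 0.29 at 24 h (adjusted p = 0.318), which shrank to -0.26 and -0.24 with quantile normalization and to -0.15 and -0.03 with cyclic loess. It neighbours BC1 in the RefSeq table, and the 2 gene models overlap there. Strand and probe positions were not looked at, so whether the 2 probe sets share any signal is unknown. BC1LP1 read 2.17 and 2.34 at 0 h, 2.08 and 1.89 at 6 h, and 1.87 and 2.04 at 24 h. Its differences were -0.27 ± 0.29 at 6 h (adjusted p = 0.643) and -0.30 ± 0.29 at 24 h (adjusted p = 0.572). The sign for BC1LP1 turned at 24 h after quantile normalization (0.0087) and at both times after cyclic loess (0.0094 and 0.05).

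**Figure D4:**
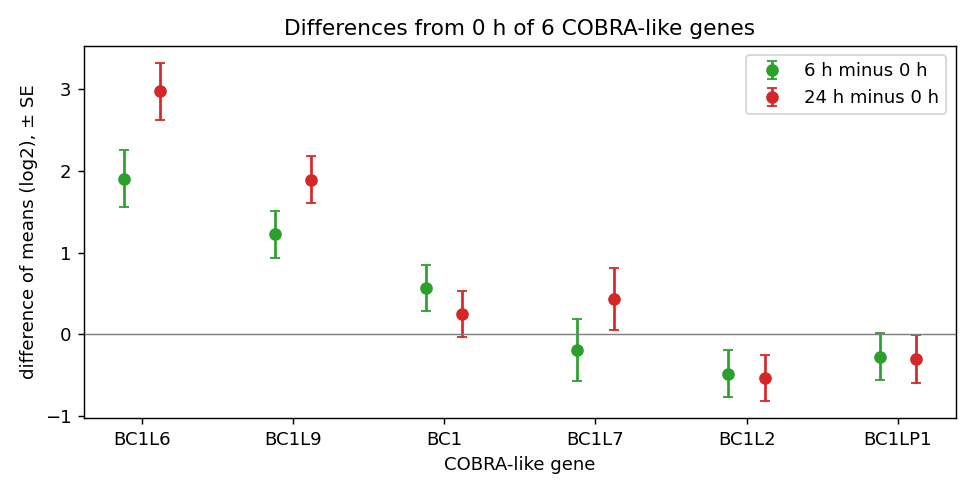
Difference of means from 0 h (log2, vertical axis) with the SE of the fit for 6 COBRA-like genes, at 6 h (left point of each pair) and 24 h (right point), n = 2 arrays per time. BC1L6 (1.91 and 2.97) and BC1L9 (1.22 and 1.89) stand above the other 4 genes, whose differences lie between -0.53 and 0.57. BC1L6 and BC1L9 were chosen for these differences.

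The measured genes next to the pair on the chromosome were read as well, 3 of them chosen for their position alone after the gene table was seen, beside BC1L7. On the far side of BC1L7 from BC1L6 lies LOC4343846, which differed by 0.64 ± 0.33 at 6 h (limma adjusted p = 0.339) and by 0.90 ± 0.33 at 24 h (adjusted p = 0.179). On the other side of BC1L6, beyond a long non-coding RNA gene with no named probe set, LOC4343843 differed by 0.36 ± 0.30 and 0.50 ± 0.30 (adjusted p = 0.550 and 0.369). Next to BC1L9, LOC4349012 read 2.56 and 2.87 at 0 h, 3.95 and 3.70 at 6 h, and 3.42 and 3.13 at 24 h, so its highest time was 6 h. Its differences from 0 h were 1.11 ± 0.31 at 6 h (adjusted p = 0.110) and 0.56 ± 0.31 at 24 h (adjusted p = 0.325). None of these 3 or BC1L7 passed with limma at any time. At an unadjusted p under 0.05, LOC4349012 was higher at 6 h and LOC4343846 at 24 h, where 19.0% and 22.1% of all genes were higher.

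Other genes of wall synthesis and loosening were matched from lists written with earlier results of these data known. In all 71 genes were found, 7 cellulose synthases, 13 cellulose synthase-like genes, 10 genes of a mixed list (8 endoglucanases, the kinesin KIN4A and FC1, an alcohol dehydrogenase of lignin synthesis), 38 expansins and 3 genes of xyloglucan and pectin enzymes. At 6 h 1 of the 71 passed as higher and 0 as lower, where 1.39% and 0.144% of all probe sets did. At 24 h 1 passed as higher and 0 as lower, where 1.98% and 0.237% did, and between 24 h and 6 h 0 passed. Counted over the 14662 genes, 307 passed as higher and 15 as lower at 6 h. At 24 h 436 genes passed as higher and 16 as lower. At an unadjusted p under 0.05, 11 were higher and 5 lower at 6 h, 8 higher and 2 lower at 24 h, and 3 higher and 0 lower between 24 h and 6 h, against 19.2%, 21.5% and 2.63% of all probe sets in either direction. Over all 14662 genes, 19.0% were higher and 4.27% lower at that level at 6 h, 22.1% and 3.94% at 24 h, and 2.13% and 1.10% between 24 h and 6 h. The median difference of the 71 was 0.14 at 6 h and 0.19 at 24 h, below the 0.20 and 0.26 of all genes. The lists lay on both sides of the median of all genes. At 6 h and 24 h the expansins had medians of -0.21 and 0.09, and the enzyme genes 0.07 and 0.36. Cellulose synthases had 0.68 and 0.64, the synthase-like genes 0.37 and 0.33, and the mixed list 0.30 and 0.36. These medians also moved with the scaling.

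The gene that passed at both times was KIN4A, a kinesin also listed as BC2 and GDD1, which in rice is known for ordered cellulose microfibrils and cell elongation. It read 4.08 and 3.88 at 0 h, 6.03 and 5.69 at 6 h, and 5.83 and 5.80 at 24 h. KIN4A rose by 1.88 ± 0.30 at 6 h (limma adjusted p = 0.0329) and by 1.83 ± 0.30 at 24 h (adjusted p = 0.0355, n = 2 arrays per time). Unlike the stepwise means of BC1L6 and BC1L9, its 24 h mean was 0.05 below its 6 h mean, a difference that did not pass (-0.05 ± 0.30, adjusted p = 1). The calls of KIN4A were lost after quantile normalization (adjusted p = 0.0892 at 6 h and 0.120 at 24 h), after cyclic loess (0.0948 and 0.143), in a fit to the 4 arrays compared (0.121 and 0.0649), with array weights at 6 h (0.0695) and without any 1 of the 4 treated arrays (0.116 to 0.201 at 6 h and 0.0649 to 0.404 at 24 h).

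The cellulose synthases, which make the glucan chains that COBRA-like proteins are thought to help order, gave 0 calls among 7 with limma at either time, although all 7 read higher than at 0 h, as did 61.4% of all genes at 6 h and 64.3% at 24 h. At an unadjusted p under 0.05, 2 of the 7 were higher at 6 h and 2 at 24 h, where 19.0% and 22.1% of all genes were. Their median difference was 0.68 at 6 h and 0.64 at 24 h, with 0.36 and 0.18 under quantile normalization and 0.20 and 0.10 under cyclic loess. CESA4, a subunit of secondary wall cellulose synthesis, read 5.44 and 4.36 at 0 h, 6.30 and 6.12 at 6 h, and 6.12 and 6.00 at 24 h. It differed by 1.31 ± 0.39 and 1.16 ± 0.39 at the later times (adjusted p = 0.131 and 0.149). The 0 h arrays of CESA4 lay apart (SD 0.76), and with n = 2 neither can be called the unusual one. Without the first 0 h array the differences of CESA4 were 1.85 and 1.70, and without the second they were smaller than with both. The lower treated array lay 0.68 above the first 0 h array at 6 h and 0.56 above it at 24 h. CESA9, another secondary wall subunit, differed by 0.88 ± 0.34 and 0.74 ± 0.34 (adjusted p = 0.207 and 0.251).

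Of 13 cellulose synthase-like genes 0 passed at any time, with 5 higher and 1 lower at an unadjusted p under 0.05 at 6 h and 1 higher at 24 h, beside the 19.0%, 4.27% and 22.1% of all genes. CSLA7, of a clade that makes mannans, differed by 1.16 ± 0.40 at 6 h and 1.40 ± 0.40 at 24 h (limma adjusted p = 0.177 and 0.109). CSLC3, of a clade that makes the xyloglucan backbone, differed by -1.04 ± 0.34 at 6 h and 0.02 ± 0.34 at 24 h (adjusted p = 0.159 and 0.981). Its arrays were lowest at 6 h, at 4.36 and 4.17, an order of times unlike that of BC1L6 and BC1L9.

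Of 38 expansins, which loosen walls during growth, 0 passed with limma at either time. With an unadjusted p under 0.05, 2 were higher and 4 lower at 6 h, and 2 higher and 2 lower at 24 h. Among all genes, 19.0% were higher and 4.27% lower at that level at 6 h, and 22.1% and 3.94% at 24 h. EXP10 read 2.56 and 3.33 at 0 h, 4.91 and 4.08 at 6 h, and 4.74 and 4.97 at 24 h. It differed by 1.55 ± 0.40 at 6 h and 1.91 ± 0.40 at 24 h (adjusted p = 0.0965 and 0.0540), and its 6 h and 24 h arrays overlapped. EXLB1, an expansin-like gene, differed by -1.11 ± 0.34 and -1.18 ± 0.34 (adjusted p = 0.135 and 0.108). Of the 3 enzyme genes 0 passed, with 0 at 6 h and 1, higher, at 24 h under an unadjusted p of 0.05, beside the same shares. The pectin methylesterase inhibitor genes OsPMEI28 and OsPMEI8 differed by 0.99 ± 0.41 and 0.36 ± 0.32 at 24 h (adjusted p = 0.216 and 0.540).

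The genes most like the pair over the 6 arrays were looked up among 1945 genes with a symbol or name, by Pearson correlation of the log2 signals, as a description with no test. All genes share the same 6 arrays and the same 3 times, so high values are common: 278 of the other 14661 genes, 1.90%, exceeded 0.95 with BC1L6, and 152, 1.04%, exceeded it with BC1L9. BC1L6 and BC1L9 correlated with each other at 0.98 (Spearman 0.94), and 38 of the other 14661 genes were closer to BC1L6 than BC1L9 was. Both were chosen for higher signals after the yeast, so a high correlation between them follows in part from the choice. Of the other COBRA-like genes, BC1 correlated with BC1L6 at 0.57 and BC1L7 at 0.33, whereas BC1L2 stood at -0.93 and BC1LP1 at -0.72.

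Closest to BC1L6 were HPT1 (0.984), a homogentisate phytyltransferase gene of tocopherol synthesis, gKOCIII (0.982), the clock gene CCA1 (0.982) and OsTPP1 (0.981), which encodes a trehalose phosphate phosphatase. Closest to BC1L9 were PSK2 (0.992), a precursor of the peptide hormone phytosulfokine, CCA1 (0.991), BC1L6 itself and PSK5 (0.977), another phytosulfokine precursor. CCA1, which encodes a morning-phase clock factor, stood near both genes. It read 4.29 and 4.34 at 0 h, 5.64 and 5.60 at 6 h, and 6.46 and 6.60 at 24 h. No source used here gives the hour of day of each harvest, and the part of time of day in these signals was not tested.

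The tissue label was checked against its markers. Of the root list, 6 genes were measured, and the silicon efflux transporter Lsi2 read 8.78 to 9.17 over the arrays. The summed linear signal of the 6 ranged over 575 to 645 at 0 h, 644 to 731 at 6 h and 579 to 708 at 24 h, most of it from Lsi2. Without Lsi2 the other 5 summed to 92.6 to 99.0 at 0 h, 110 to 155 at 6 h and 140 to 162 at 24 h, so that sum was higher on all treated arrays, as the signals of BC1L6 and BC1L9 were, and its part in them was not tested. These 5 did not all go one way: at 6 h and 24 h the endodermal regulator OsSCR1 differed by 0.84 and 0.95, the sodium transporter HKT1;5 by 0.74 and 1.17 and the crown root factor OsWOX11 by -0.80 and -0.83. With limma, 0 of the 6 passed at any time. The 3 markers of green shoot tissue summed to 66.8 to 104 at 0 h, 39.1 to 61.1 at 6 h and 62.1 to 91.7 at 24 h, and the 7 of dividing cells to 69.3 to 77.0, 76.6 to 79.4 and 72.7 to 87.4 at those times, again with 0 passed. At an unadjusted p under 0.05, 1 root marker was higher and 1 green marker lower at 6 h, and 2 root markers were higher at 24 h. Among all genes, 19.0% were higher and 4.27% lower at that level at 6 h, and 22.1% were higher at 24 h. No root hair gene of the list was matched, so the share of root hairs in the samples was not tested. In a bulk root sample, a larger share of the cells that express a gene and more RNA per cell cannot be told apart.

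Facts of the arrays bear on the control time. Array medians lay between 2.79 and 2.93, while the SD over probe sets was 1.505 and 1.464 at 0 h and 1.62 to 1.82 on the treated arrays. Across probe sets the 0 h arrays correlated at 0.868 with each other, against 0.936 for the 6 h arrays and 0.976 for the 24 h arrays. The narrower 0 h arrays move with every difference from 0 h given here, and values after normalizations that equalise the spread therefore stand beside them. After quantile normalization BC1L6 was 1.73 and 2.70 higher at 6 h and 24 h than at 0 h, and after cyclic loess 1.34 and 2.27. BC1L9 was 0.65 and 1.31 higher with the first method and 0.66 and 1.25 with the second. The median of all genes was then 0.10 at both times with quantile normalization, and 0.08 and 0.07 with cyclic loess. Of its 14662 places by the 24 h difference, BC1L6 then held place 17 and place 19, and BC1L9 place 688 and place 469.

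**Figure D5:**
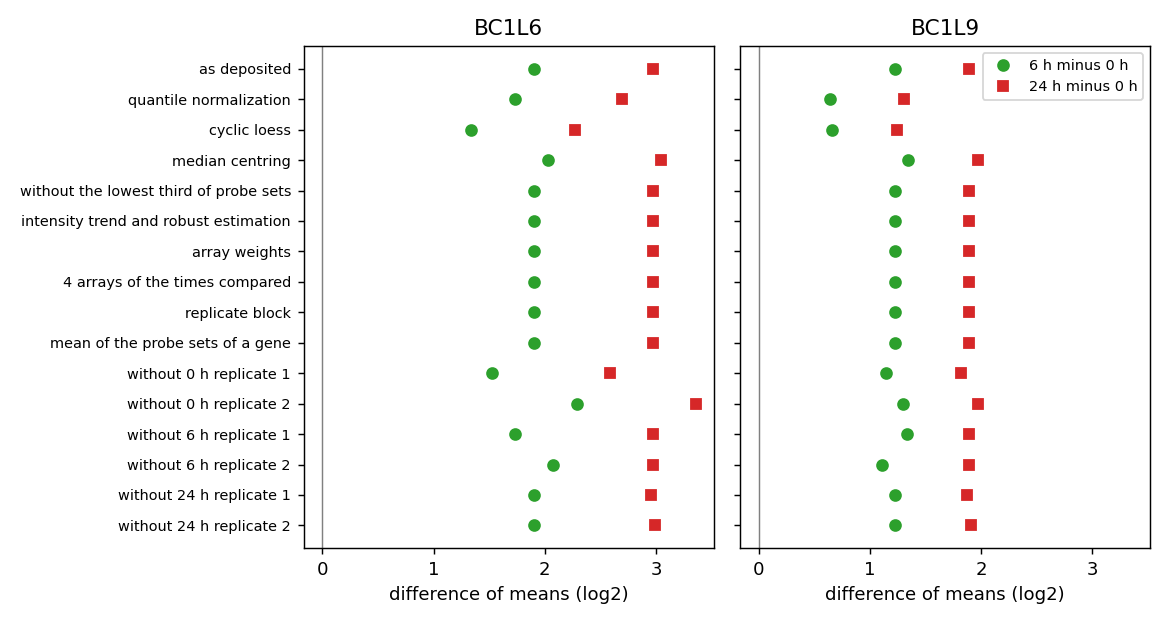
Difference of means from 0 h (log2, horizontal axis) of BC1L6 and BC1L9 as deposited and under 15 other ways of processing the values (vertical axis), with circles for 6 h and squares for 24 h. Among these, 6 leave the differences unchanged by construction, and leaving out an array cannot turn the sign of groups that do not overlap. Of the 3 rescalings, only cyclic loess could have turned a sign. BC1L6 lies between 1.34 and 2.29 at 6 h and between 2.27 and 3.36 at 24 h, and BC1L9 between 0.65 and 1.34 at 6 h and between 1.25 and 1.97 at 24 h.

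As deposited, the difference of means between 24 h and 6 h does not use the 0 h arrays. Both normalizations were run on all 6 arrays, so their values draw on the 0 h arrays too. So does the SE of the fit, which shares the spread of all 6 arrays. At 24 h BC1L6 was 1.07 higher than at 6 h as deposited, 0.97 after quantile normalization and 0.94 after cyclic loess. BC1L9 was 0.67, 0.66 and 0.59 higher. Leaving out 1 array at a time gave 0.90 to 1.24 for BC1L6 and 0.56 to 0.78 for BC1L9.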

How the data were processed

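Total RNA of rice roots was labelled with the GeneChip WT Terminal Labeling kit and hybridised to Affymetrix arrays, per the labels' protocols. The authors deposited 1 table of summarised signals, taken here to be log2 because the values run from 0.65 to 13.4; no source used here gives the base, background correction or normalization. Affymetrix Expression Console was used, per the submitters' processing notes.

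Of 41770 probe sets, 15299 were annotated to 1 gene, 436 to several and 26035 to none; 14661 of 14662 genes were found in a RefSeq table of assembly ASM3414082v1, used for names and gene order only. One mean per time was estimated over all probe sets and 6 arrays with limma 3.58.1 in R 4.3.3 (3 residual and 5.08 prior degrees of freedom), with Benjamini-Hochberg adjustment over all probe sets and a threshold of 0.05; the fit was tested on simulated data. Passed, rose and fell refer to that threshold. Array values are signals, and folds are 2 to the power of the log2 difference. Python 3.11.15 drew the plots.

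BC1L6, BC1L9, the gene lists and the alternatives were chosen with earlier results of these data known. Named are all COBRA-like genes matched, per wall list the genes that passed (up to 4) or the 2 with the smallest unadjusted p from 0 h, and the 4 named genes most correlated with each of the pair. Lists for fasciclin-like proteins, secondary wall regulators and root hairs matched 0 genes. The alternatives were quantile normalization, cyclic loess, median centring, dropping the dimmest 33.3% of probe sets, array weights, an eBayes intensity trend with robust estimation, a fit to 4 arrays, a replicate block, the mean of a gene's probe sets, and leaving out each array.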

Additional observations from a re-analysis of the deposited data

How the results depend on the processing

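Of the 15 alternatives, 6 leave the differences of BC1L6 and BC1L9 unchanged by construction, and leaving out 1 array cannot turn the sign of groups that do not overlap. Under the 3 rescalings the differences between times stayed positive, but only cyclic loess could have turned the sign. Median centring could not, since array medians lay between 2.79 and 2.93 and the narrowest gap between times was 0.54. Quantile normalization keeps the ranks within each array, and in both genes these already followed the order of times. BC1L6 moved by more than its replicate spread after cyclic loess (1.34 at 6 h and 2.27 at 24 h) and when a 0 h array was left out. Leaving out 1 array at a time gave 1.52 to 2.29 at 6 h and 2.59 to 3.36 at 24 h, with both ends set by the 0 h arrays. BC1L9 moved after quantile normalization (0.65 at 6 h and 1.31 at 24 h), cyclic loess (0.66 and 1.25) and, at 6 h, median centring (1.34). The count of other COBRA-like genes that passed was 0 under each alternative, but 2 of these settings at 6 h and 5 at 24 h called 0 of all probe sets, and only 2 of the 4 genes were left after the dimmest 33.3% were dropped. The count of other wall genes that passed, 1 at 6 h and 1 at 24 h, became 0 at both times after quantile normalization, after cyclic loess and in the fit to 4 arrays, and 0 at 6 h with array weights. It became 2 at 24 h with median centring, without the dimmest 33.3% of probe sets and with array weights, where EXP10 joined KIN4A. Leaving out 1 array at a time gave 0 to 3 at 6 h and 0 to 3 at 24 h: without the first 0 h array 3 passed at each time (KIN4A and CESA4 higher, EXLB1 lower), without the second 2 (KIN4A with EXP14 lower at 6 h and with EXP10 higher at 24 h; EXP14 is named after its values were seen), and without any treated array 0. A time left with a single array was given the spread of the rest. The cause of these changes was not tested.

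With the replicate number as a replicate block, the count of wall genes that passed was 1 at 6 h, 1 at 24 h and 0 for 24 h against 6 h. In this balanced design the block cannot change a difference of means. Over all probe sets the block gave 384 calls at 6 h, against 641, and 570 at 24 h, against 925. Deviations of same-numbered arrays correlated at 0.05 (0 h with 6 h), 0.03 (0 h with 24 h) and 0.16 (6 h with 24 h). These values do not settle what same-numbered samples share beyond the number. Over all probe sets quantile normalization gave 81 calls at 6 h and 24 at 24 h, cyclic loess 119 and 52, median centring 1146 and 1302, array weights 187 and 1502, the intensity trend 1062 and 1284, and leaving out 1 array 0 to 2249 and 0 to 2793. Without detection calls, how reliably signals as low as those of BC1L2 and BC1LP1 were measured is unknown.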
